A study of Homo sapiens with 6 samples.

Results

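The genes described here encode the machinery that carries RNA and protein through the nuclear envelope: nuclear pore proteins, importins, exportins and the GTPase RAN. They were taken by name, as the rows of the deposited table whose symbol starts with NUP, IPO, KPNA or KPNB followed by a digit, or with XPO or TNPO, together with CSE1L and RAN. This gave 48 of the 18806 genes, divided by known role into 22 pore proteins, 18 importers, 7 exporters and RAN. The values come from poly(A) RNA sequencing of Mono-Mac-6 cells, an established human line of monocytic acute myeloid leukaemia with the MLL-AF9 fusion gene. All cells descend from 1 clone that makes Cas9 and were transduced by lentivirus with the METTL1 guide sgMETTL1.3, the METTL1 guide sgMETTL1.6 or the control guide sgNS, selected with blasticidin and hygromycin B, and harvested at about 8 to 10 days. The library names of all 3 groups also carry the letters EV, which the labels do not explain. There were 2 libraries in each of the 3 groups. METTL1 is a methyltransferase that, with its partner WDR4, puts N7-methylguanosine into a subset of tRNAs.

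Nuclear pores are built from many copies of different nucleoporins, which form stacked rings, a membrane anchor, a central channel lined by phenylalanine-glycine (FG) repeats, cytoplasmic filaments and a nuclear basket. Large cargo passes with transport receptors of the importin beta family. Importins bind cargo in the cytoplasm and let it go when they meet RAN loaded with GTP in the nucleus, whereas exportins bind cargo together with RAN-GTP and release it in the cytoplasm. Importin alpha proteins (KPNA) are adaptors that join classical nuclear localisation signals to importin beta (KPNB1), and CSE1L carries them back out. XPOT is the exportin for mature tRNAs, the molecules that METTL1 modifies.

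The libraries can be characterised briefly. The targeted gene METTL1 stood at 18.3 and 16.6 TPM in the sgMETTL1.3 libraries and 11.2 and 11.7 TPM in the sgMETTL1.6 libraries, against 15.4 and 13.9 TPM in the sgNS libraries, and its mRNA was higher with sgMETTL1.3 (log2 0.24, adjusted p = 0.011) and lower with sgMETTL1.6 (log2 -0.33, adjusted p = 0.0017). Gene-level TPM does not read the small insertions and deletions that Cas9 leaves, and neither the cut nor the loss of protein is checked by these levels, so the groups are named as labelled. Of 11 monocytic leukaemia markers 9 had at least 1 TPM in every library, among them LYZ, FLT3, SPI1 and CD33, while CD14 and CSF1R were under 1 TPM in all 6. Among markers of T and NK, B, erythroid, epithelial and stromal cells, CD3D, CD3E, CD2, MS4A1 and HBB were at 0 in all 6 libraries. Those that averaged 1 TPM or more were CD8A, HBA1, KRT18 and NKG7, the last at 88.5 and 94.1 TPM in sgMETTL1.3 cells, 92.5 and 96.4 TPM in sgMETTL1.6 cells, against 113 and 123 TPM in sgNS cells. The 11 monocytic markers summed to 11312 to 12942 TPM in the guide libraries and 13465 to 14017 TPM in the sgNS libraries. LYZ made up most of each sum, at 9206 to 11419 TPM over the 6 libraries. By the limma test given below, 6 of the 9 fell over both guides (66.7%), SPI1 rose (11.1%) and 2 did not pass. Over all genes tested 26.8% fell and 32.6% rose. The part of these shifts in the levels of transport genes was not tested. TPM is an estimated share of the transcripts of a library, so read depth is unknown here. Whether the 2 libraries of a group came from separate cultures is not in the labels, and the p-values given measure the spread between libraries alone, which may be technical.

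Across both METTL1 guides, most transport genes were slightly higher than with the control guide and a small number were lower, XPOT the most. Of the 48 genes, 45 had a mean of at least 1 TPM and were tested; NUP210L, NUP62CL and the embryonic importin alpha KPNA7 were below 0.2 TPM in every library. Among the 45, 27 rose and 5 fell (limma on log2(TPM + 1), Benjamini-Hochberg adjusted p under 0.05 over all 10911 genes tested), and 13 did not pass. Over all genes tested, 32.6% rose and 26.8% fell, 59.4% in all. The 45 were well expressed, at 16.9 to 441 TPM with sgNS, and among the 6577 genes within that range, a set added after the values were seen, 37.4% rose and 28.3% fell. The median log2 change was 0.15 over the 45 and 0.023 over all genes tested. All 4 guide libraries lay above both sgNS libraries for 27 of the 45 and below both for 4, against 32.9% and 27.3% of all genes tested. Without sgNS replicate 1 or sgNS replicate 2, which leaves 1 sgNS library, fewer of the 45 rose and fewer fell. The same held over all genes tested.

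**Figure D1:**
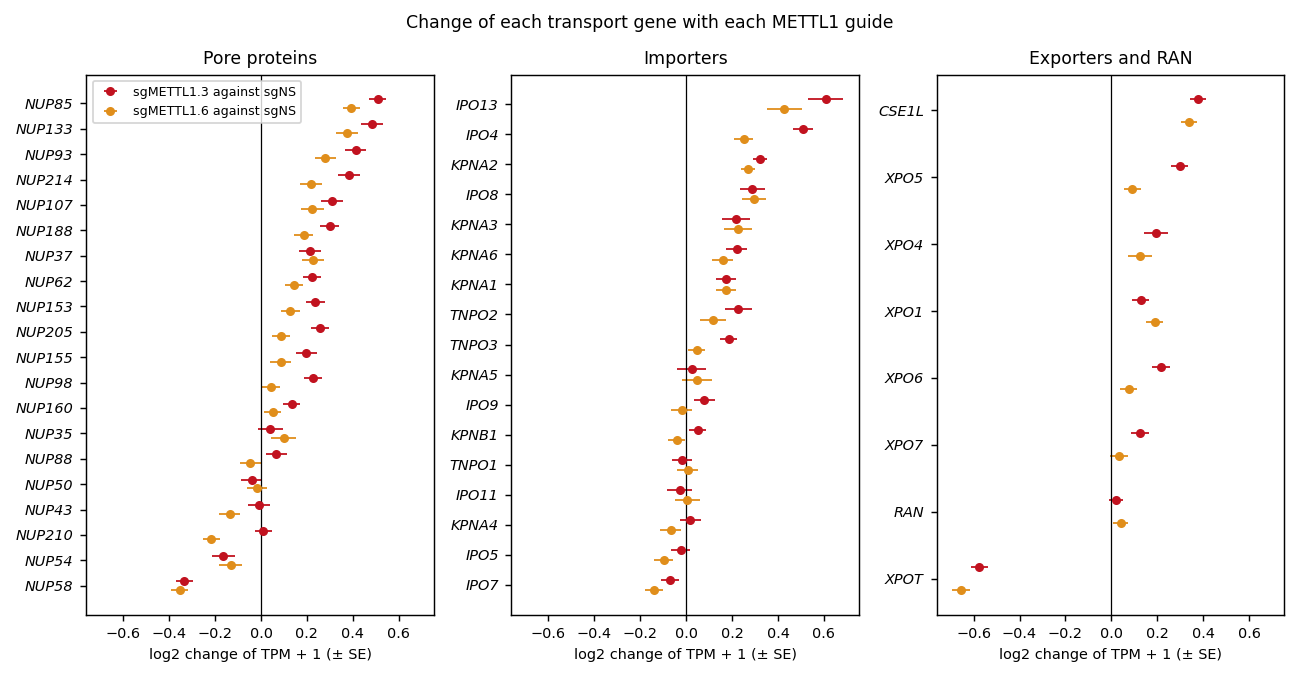
Log2 change of TPM + 1 (x axis, ± SE) for each tested pore protein, importer, exporter and RAN, with sgMETTL1.3 (red) and sgMETTL1.6 (orange) each against sgNS; both are set against the same 2 sgNS libraries. Most points lie right of 0, and XPOT lies farthest to the left, at -0.58 with sgMETTL1.3 and -0.66 with sgMETTL1.6.

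Each guide was also set against sgNS alone. With sgMETTL1.3, 28 of the 45 rose and 3 fell (34.3% and 24.2% of all genes tested, 58.5% in all), and with sgMETTL1.6, 18 rose and 6 fell (25.7% and 25.3% of all genes tested, 51.0% in all). These comparisons share the sgNS libraries. The falls were XPOT, NUP58 and NUP54 with sgMETTL1.3, and XPOT, NUP58, NUP54, IPO7, NUP43 and NUP210 with sgMETTL1.6. Without sgMETTL1.6 replicate 2, 3 fell with sgMETTL1.6.

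Exporters were the class with the widest spread of changes, from log2 -0.62 to 0.36 with a median of 0.16. That spread came from XPOT alone, since the other 6 ran from 0.079 to 0.36, narrower than pore proteins or importers. Over both guides 5 of the 7 rose (71.4%), XPOT fell (14.3%) and XPO7 did not pass, against 32.6% and 26.8% of all genes tested. With sgMETTL1.3 alone 6 rose, and with sgMETTL1.6 alone 2 rose, against 34.3% and 25.7% of all genes tested. XPOT (ENSG00000184575.11, plus strand of chromosome 12, 64404350 to 64451127 in GRCh38), the tRNA exporter, had 303 and 288 TPM in the sgMETTL1.3 libraries and 288 and 271 TPM in the sgMETTL1.6 libraries, against 443 and 439 TPM in the sgNS libraries. Both guides' libraries were lower than either control and the groups did not overlap. The level with both guides was 0.652 times that with sgNS (log2 -0.62 ± 0.033, SE, limma adjusted p = 5.3e-09), 287 ± 13.0 TPM (SD, n = 4) against 441 ± 2.88 TPM (SD, n = 2). In bulk RNA, fewer cells with a high level and less RNA per cell cannot be told apart. The log2 change was -0.58 with sgMETTL1.3 and -0.66 with sgMETTL1.6, and the difference between the guides did not pass the test (log2 -0.079, adjusted p = 0.14). Among the 48 genes XPOT had rank 5 in mean TPM with the METTL1 guides, after KPNA2, KPNB1, RAN and XPO1, and rank 1 with sgNS. TPM is per transcript length, so these levels can be compared between genes.

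The other exporters that passed the test moved the opposite way. CSE1L (ENSG00000124207.16, plus strand of chromosome 20, 49046246 to 49096960), which returns importin alpha to the cytoplasm, had 219.7 and 221 TPM in the sgMETTL1.3 libraries and 218 and 209.8 TPM in the sgMETTL1.6 libraries, against 170.3 and 168 TPM in the sgNS libraries. It rose in all 4 guide libraries (log2 0.36 ± 0.030, SE, limma adjusted p = 4.4e-07). XPO1, the exportin for leucine-rich export signals and for ribosomal subunits through adaptors, had 357 and 347 TPM in the sgMETTL1.3 libraries and 380.2 and 354 TPM in the sgMETTL1.6 libraries, against 323 and 320.4 TPM in the sgNS libraries, a smaller rise without overlap (log2 0.16 ± 0.032, SE, limma adjusted p = 0.00085). XPO5, which exports pre-miRNAs, had 161 and 156 TPM in the sgMETTL1.3 libraries and 138 and 136 TPM in the sgMETTL1.6 libraries, against 127 and 130.4 TPM in the sgNS libraries (log2 0.19 ± 0.032, SE, limma adjusted p = 0.00018), with the sgMETTL1.6 libraries between the other groups. XPO4 and XPO6, whose cargoes include eIF5A and actin, rose by log2 0.16 (adjusted p = 0.0085) and 0.15 (adjusted p = 0.0020). With sgMETTL1.6 alone neither passed the limma test (adjusted p = 0.065 and 0.12). XPO4 had 37.9 and 37.6 TPM in sgMETTL1.3 cells, 37.5 and 34.2 TPM in sgMETTL1.6 cells, against 32.9 and 32.7 TPM in sgNS cells. XPO7, a receptor with broad cargo, stood at 88.7 and 87.8 TPM in sgMETTL1.3 cells, 83.4 and 82.4 TPM in sgMETTL1.6 cells, against 79.8 and 82.0 TPM in sgNS cells. Its groups did not overlap but it did not pass (log2 0.079, adjusted p = 0.060). It did pass without the 1 TPM filter (adjusted p = 0.039) and with a replicate block in the model (adjusted p = 0.026). XPO4 did not pass without sgNS replicate 1 (adjusted p = 0.051) or sgNS replicate 2 (adjusted p = 0.056).

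The balance among exporters also differed between guide and control libraries. XPOT made up 23.8% and 23.2% of the summed exporter TPM with sgMETTL1.3 and 23.2% and 22.9% with sgMETTL1.6, against 35.0% and 34.7% with sgNS. The ratio of XPOT to XPO1 was 0.850 and 0.829 with sgMETTL1.3 and 0.757 and 0.766 with sgMETTL1.6, against 1.37 in each sgNS library. XPOT was the more abundant transcript of the pair with sgNS, and XPO1 with either METTL1 guide. Without XPOT the exporters summed to 970.3 and 954 TPM in sgMETTL1.3 cells, 953 and 912 TPM in sgMETTL1.6 cells, against 823 and 826 TPM in sgNS cells; with XPOT the sums were 1273 and 1242 TPM in sgMETTL1.3 cells, 1241 and 1184 TPM in sgMETTL1.6 cells, against 1265 and 1264 TPM in sgNS cells. The class sum including XPOT overlapped between guide and control libraries, and the sum without it did not.

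**Figure D2:**
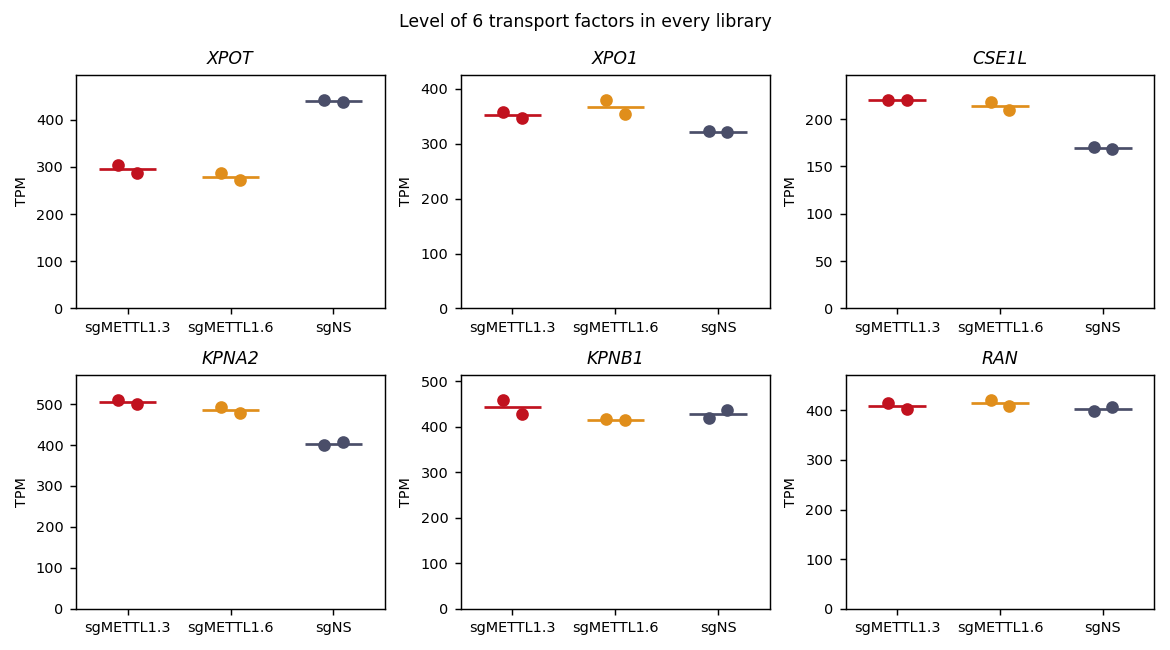
TPM (y axis, from 0) of XPOT, XPO1, CSE1L, KPNA2, KPNB1 and RAN in each library (points; n = 2 per group, lines are group means) for sgMETTL1.3, sgMETTL1.6 and sgNS. XPOT is lower, and CSE1L, XPO1 and KPNA2 are higher, in all 4 guide libraries than in the sgNS libraries, while KPNB1 and RAN overlap.

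XPOT has been catalogued among the targets of the stress transcription factors ATF4 and CHOP (DDIT3) in mouse cells. In the same libraries ATF4 had 418 and 411 TPM in the sgMETTL1.3 libraries and 389.9 and 401 TPM in the sgMETTL1.6 libraries, against 604 and 608 TPM in the sgNS libraries. DDIT3 had 54.7 and 57.8 TPM in sgMETTL1.3 cells, 45.8 and 47.2 TPM in sgMETTL1.6 cells, against 128 and 128 TPM in sgNS cells. ASNS, the asparagine synthetase and a classical ATF4 target, had 89.5 and 83.1 TPM in sgMETTL1.3 cells, 79.6 and 77.5 TPM in sgMETTL1.6 cells, against 547 and 545 TPM in sgNS cells. The log2 changes were -0.58 for ATF4, -1.31 for DDIT3 and -2.71 for ASNS, against -0.62 for XPOT. The 3 stress genes were lower in every METTL1 guide library than in either sgNS library, and their part in the level of XPOT was not tested.

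To show the sequence upstream of the tRNA exporter beside that of the exporter that rose the most, the 250 bases before the RefSeq transcription start (GRCh38.p14) are printed for both, with matches to any of 3 motifs in capitals. The motifs, searched on both strands, were the C/EBP-ATF element TGATGNAA, which ATF4 and C/EBP proteins can bind, the E-box CACGTG, which MYC and MAX can bind, and the CCAAT box CCAAT, which NF-Y can bind. The RefSeq starts lie downstream of the GENCODE 29 gene starts given above, so the last 42 bases of the XPOT window and the last 66 of the CSE1L window fall inside the GENCODE genes. No matches overlap in the windows shown.
XPOT, chr12:64404142-64404391, plus strand: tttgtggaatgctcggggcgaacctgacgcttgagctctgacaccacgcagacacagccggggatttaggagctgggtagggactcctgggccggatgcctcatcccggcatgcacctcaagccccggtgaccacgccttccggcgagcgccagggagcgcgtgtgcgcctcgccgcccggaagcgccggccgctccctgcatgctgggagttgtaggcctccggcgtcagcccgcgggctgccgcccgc
CSE1L, chr20:49046062-49046311, plus strand: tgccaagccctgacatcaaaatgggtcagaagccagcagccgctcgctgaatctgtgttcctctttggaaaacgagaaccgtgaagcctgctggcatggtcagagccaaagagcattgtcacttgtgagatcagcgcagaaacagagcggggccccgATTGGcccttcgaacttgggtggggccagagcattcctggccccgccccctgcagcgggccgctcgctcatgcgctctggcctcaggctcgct
The XPOT window holds none of the 3 sets of letters. The CSE1L window holds 1 CCAAT box, on the opposite strand, 93 to 89 bases before the start. Of all 27305 RefSeq windows of this length, 3.19% hold TGATGNAA, 6.49% CACGTG and 33.0% CCAAT. Windows were found for 42 of the 48 genes, of which 1 (NUP153) holds TGATGNAA, 7 hold CACGTG and 20 hold CCAAT. A match is a description of letters and not a binding site, and other regions of the genes were not searched.

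Of 17 importers tested, 9 rose (52.9%), IPO7 fell (5.88%) and 7 did not pass, against 32.6% and 26.8% of all genes tested. Their median log2 change was 0.12. With sgMETTL1.3 alone 9 rose, and with sgMETTL1.6 alone 7 rose, against 34.3% and 25.7% of all genes tested. Importin alpha adaptors were mostly higher: KPNA1, KPNA2, KPNA3 and KPNA6 rose, KPNA4 and KPNA5 did not pass, and the median over the 6 was 0.18. KPNA2 (ENSG00000182481.8, plus strand of chromosome 17, 68035519 to 68046842), the main importin alpha of dividing cells, had 510.4 and 499 TPM in the sgMETTL1.3 libraries and 493 and 479 TPM in the sgMETTL1.6 libraries, against 401 and 406 TPM in the sgNS libraries. It rose without overlap (log2 0.29 ± 0.026, SE, limma adjusted p = 8.5e-07) and made up 68.6% to 69.1% of all importin alpha TPM in the guide libraries and 66.0% and 66.6% in the sgNS libraries. The ubiquitous adaptors KPNA1 and KPNA6 rose by log2 0.17 (adjusted p = 0.0014) and 0.19 (adjusted p = 0.00093), and KPNA3 by 0.22 (adjusted p = 0.0030). The call on KPNA3 was lost without sgNS replicate 2 (adjusted p = 0.082). KPNA5 stood at log2 0.035 (adjusted p = 0.60). KPNA4, the closest relative of KPNA3, stood at 56.8 and 54.0 TPM in sgMETTL1.3 cells, 53.0 and 51.3 TPM in sgMETTL1.6 cells, against 55.1 and 54.3 TPM in sgNS cells, with overlapping groups (log2 -0.025).

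Of the 11 carriers of the importin beta family, 5 rose, 1 fell and 5 did not pass, with a median log2 change of 0.029. The rises and falls were 45.5% and 9.09% of the family, against 32.6% and 26.8% of all genes tested. No difference between the importer families was tested. KPNB1, importin beta itself and the partner of the KPNA adaptors, had 459 and 428 TPM in the sgMETTL1.3 libraries and 417 and 415 TPM in the sgMETTL1.6 libraries, against 419 and 437 TPM in the sgNS libraries. Its groups overlapped and it did not pass (log2 0.0049 ± 0.032, SE, limma adjusted p = 0.90). IPO13 (ENSG00000117408.10, plus strand of chromosome 1, 43946939 to 43968022), which imports UBC9 and also exports eIF1A, had 25.7 and 26.9 TPM in the sgMETTL1.3 libraries and 21.4 and 24.8 TPM in the sgMETTL1.6 libraries, against 15.8 and 18.1 TPM in the sgNS libraries. It was the lowest of the 45 in mean TPM with sgNS and had the highest rise among them (log2 0.52 ± 0.066, SE, limma adjusted p = 2.0e-05). IPO4, which imports histones and ribosomal proteins, had 66.6 and 65.4 TPM in the sgMETTL1.3 libraries and 54.9 and 55.1 TPM in the sgMETTL1.6 libraries, against 45.4 and 46.8 TPM in the sgNS libraries (log2 0.38 ± 0.037, SE, limma adjusted p = 1.9e-06), highest with sgMETTL1.3. IPO8, a carrier of SMAD and Argonaute proteins, rose by log2 0.29 (adjusted p = 0.00013). The transportins TNPO2 and TNPO3, which import RNA-binding proteins, rose by log2 0.17 (adjusted p = 0.010) and 0.12 (adjusted p = 0.0082). With sgMETTL1.6 alone neither TNPO2 nor TNPO3 passed (limma adjusted p = 0.11 and 0.33).

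The other 6 genes of the family did not rise, KPNB1 among them. IPO7, a carrier of ribosomal proteins and histone H1 related to IPO8, had 191 and 183 TPM in the sgMETTL1.3 libraries and 183 and 173 TPM in the sgMETTL1.6 libraries, against 195 and 198 TPM in the sgNS libraries. It fell by a small step (log2 -0.11 ± 0.034, SE, limma adjusted p = 0.016). IPO5, which also carries ribosomal proteins, stood at 180.4 and 170.1 TPM in sgMETTL1.3 cells, 170.4 and 162 TPM in sgMETTL1.6 cells, against 176 and 181 TPM in sgNS cells (log2 -0.061, adjusted p = 0.15). IPO9, a histone importer, stood at log2 0.029 (adjusted p = 0.54), IPO11 at -0.012 (adjusted p = 0.84) and TNPO1, the importer of hnRNP proteins, at -0.0057 (adjusted p = 0.91). The calls on TNPO2 and TNPO3 were lost without sgNS replicate 1 (adjusted p = 0.15 and 0.13), and that on IPO7 without sgNS replicate 1, sgNS replicate 2 or sgMETTL1.3 replicate 2 (adjusted p = 0.063, 0.11 and 0.056) or without the variance trend (adjusted p = 0.073). IPO5 fell with median-ratio scaling (adjusted p = 0.043), quantile normalization (0.024) or without ribosomal protein genes (0.039).

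RAN, which sets the direction of transport for all these receptors, had 415 and 402 TPM in the sgMETTL1.3 libraries and 421 and 409 TPM in the sgMETTL1.6 libraries, against 399 and 407 TPM in the sgNS libraries. The groups overlapped and the difference did not pass (log2 0.030 ± 0.028, SE, limma adjusted p = 0.36). GENCODE 29 names pseudogenes after 10 of the 48 genes, which could share reads with them: 9 after RAN, 3 each after KPNA2, NUP210 and TNPO1, 2 each after IPO5, IPO7 and NUP35, and 1 each after XPOT, NUP58 and IPO8. The regulators of RAN were mostly higher. Of the 8 genes of the Ran cycle list, 6 rose (75%), RANBP9 fell (12.5%) and RANBP10 did not pass, against 32.6% and 26.8% of all genes tested. RCC1, the chromatin-bound exchange factor that loads RAN with GTP, had 216 and 216 TPM in the sgMETTL1.3 libraries and 205 and 214 TPM in the sgMETTL1.6 libraries, against 144 and 154 TPM in the sgNS libraries (log2 0.51 ± 0.034, SE, limma adjusted p = 5.6e-08). RANGAP1, which makes RAN hydrolyse its GTP, rose by log2 0.34 (adjusted p = 6.6e-06), and RANBP1, which assists it, by 0.31 (adjusted p = 3.3e-06). NUTF2, the carrier that brings RAN back into the nucleus, rose by log2 0.25 (adjusted p = 0.00025). RANBP9 fell by 0.44 on the log2 scale (adjusted p = 2.6e-07). It and RANBP10 are named for RAN binding but are scaffolds of the CTLH ubiquitin ligase.

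Pore proteins rose more often than they fell. Of the 20 tested, 13 rose (65%), 3 fell (15%) and 4 did not pass, against 32.6% and 26.8% of all genes tested. The median log2 change was 0.16, with a range of -0.34 to 0.45. With sgMETTL1.3 alone 13 rose, and with sgMETTL1.6 alone 9 rose, against 34.3% and 25.7% of all genes tested. The highest rises were in the scaffold. The outer ring Y complex has 10 genes in all. Over both guides 8 rose (80%), 0 fell and NUP43 and AHCTF1 did not pass. NUP98 is counted here because its precursor also yields the Y complex protein NUP96. With sgMETTL1.3 alone 9 rose and 0 fell. With sgMETTL1.6 alone 6 rose and NUP43 fell (limma adjusted p = 0.026), against 25.7% and 25.3% of all genes tested. NUP160, NUP98 and AHCTF1 did not pass with sgMETTL1.6 alone (limma adjusted p = 0.28, 0.39 and 0.34). NUP85 (ENSG00000125450.10, plus strand of chromosome 17, 75205659 to 75235758) had 115 and 115 TPM in the sgMETTL1.3 libraries and 106 and 106 TPM in the sgMETTL1.6 libraries, against 80.8 and 80.1 TPM in the sgNS libraries, 1.37 times the control level with both guides (log2 0.45 ± 0.032, SE, limma adjusted p = 9.6e-08). NUP133, at the stem of the Y, had 99.2 and 94.6 TPM in the sgMETTL1.3 libraries and 94.1 and 85.5 TPM in the sgMETTL1.6 libraries, against 68.5 and 69.5 TPM in the sgNS libraries (log2 0.43 ± 0.042, SE, limma adjusted p = 2.0e-06). NUP107 and NUP37 rose by log2 0.27 (adjusted p = 0.00012) and 0.22 (adjusted p = 0.00051), and NUP98 by 0.13 (adjusted p = 0.0044) with overlapping groups. NUP43 stood at 75.9 and 71.9 TPM in sgMETTL1.3 cells, 69.4 and 65.7 TPM in sgMETTL1.6 cells, against 75.8 and 72.9 TPM in sgNS cells (log2 -0.072, adjusted p = 0.14). It fell without ribosomal protein genes (adjusted p = 0.044) and with a replicate block in the model (adjusted p = 0.039). NUP160, a large Y complex subunit, had the smallest rise that passed (log2 0.092, adjusted p = 0.025). That call was lost without either sgNS replicate, sgMETTL1.3 replicate 1 or sgMETTL1.6 replicate 1 (adjusted p from 0.061 to 0.16). It was also lost with median-ratio scaling (adjusted p = 0.073), quantile normalization (0.14), removal of ribosomal protein genes (0.11) and without the variance trend (0.081). The call on NUP98 was lost without sgNS replicate 1 (adjusted p = 0.089).

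In the inner ring, 4 of 5 genes were higher over both guides (80%), against 32.6% of all genes tested. The count was 4 with sgMETTL1.3 alone and 2 with sgMETTL1.6 alone (80% and 40%), against 34.3% and 25.7% of all genes tested. With sgMETTL1.6 alone NUP205 and NUP155 did not pass (limma adjusted p = 0.073 and 0.14). NUP93, which ties the inner ring together, had 58.6 and 55.6 TPM in the sgMETTL1.3 libraries and 52.2 and 51.8 TPM in the sgMETTL1.6 libraries, against 42.4 and 42.9 TPM in the sgNS libraries (log2 0.35 ± 0.039, SE, limma adjusted p = 7.0e-06), without overlap. NUP188 and NUP205, its alternative large partners, rose by log2 0.24 (adjusted p = 7.3e-05) and 0.17 (adjusted p = 0.00062), and NUP155 by 0.14 (adjusted p = 0.0086). NUP35 stood at 21.5 and 22.8 TPM in sgMETTL1.3 cells, 23.4 and 22.8 TPM in sgMETTL1.6 cells, against 21.3 and 21.7 TPM in sgNS cells and did not pass (adjusted p = 0.23). The call on NUP155 was lost without sgNS replicate 1 (adjusted p = 0.15).

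The central channel was split. Its 3 FG proteins form 1 complex, and NUP62 was higher while NUP54 and NUP58 were lower. NUP58 (ENSG00000139496.15, plus strand of chromosome 13, 25301524 to 25349800) had 182 and 181 TPM in the sgMETTL1.3 libraries and 182 and 176 TPM in the sgMETTL1.6 libraries, against 234 and 225 TPM in the sgNS libraries. It was the pore protein with the highest level in the sgNS libraries and had the deepest fall of the class, 0.787 times the control level (log2 -0.34 ± 0.031, SE, limma adjusted p = 9.7e-07). NUP54 had 78.9 and 79.8 TPM in the sgMETTL1.3 libraries and 84.4 and 78.0 TPM in the sgMETTL1.6 libraries, against 92.8 and 85.5 TPM in the sgNS libraries (log2 -0.15 ± 0.043, SE, limma adjusted p = 0.010), and its call was lost without sgNS replicate 1 (adjusted p = 0.20) and without the 1 TPM filter (adjusted p = 0.054). NUP62 had 123 and 124 TPM in the sgMETTL1.3 libraries and 117 and 117 TPM in the sgMETTL1.6 libraries, against 103 and 109 TPM in the sgNS libraries (log2 0.18 ± 0.035, SE, limma adjusted p = 0.00054). In GENCODE 29 exons of NUP62 overlap IL4I1 on the same strand and ATF5 on the opposite strand. Such overlap is not particular to NUP62. Of the 48 genes, 5 have exons overlapping a gene on the same strand and 17 on the opposite strand, among them IPO4, XPO5, NUP98 and NUP43. ATF5 had 155 and 159 TPM in sgMETTL1.3 cells, 98.0 and 104 TPM in sgMETTL1.6 cells, against 253 and 262 TPM in sgNS cells. ATF5 fell (log2 -1.03, adjusted p = 4.5e-11) and so did IL4I1 (log2 -0.30, adjusted p = 0.029), opposite in sign to NUP62.

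Of the peripheral pore proteins, NUP214 on the cytoplasmic side, which takes part in mRNA and XPO1-dependent export, rose by log2 0.30 (adjusted p = 4.3e-05), and its partner NUP88 stood at 42.0 and 42.3 TPM in sgMETTL1.3 cells, 39.7 and 38.1 TPM in sgMETTL1.6 cells, against 39.9 and 40.5 TPM in sgNS cells (log2 0.0098, adjusted p = 0.85). In the nuclear basket, NUP153, an anchor of the basket, rose by log2 0.18 (adjusted p = 0.00075), whereas NUP50, which helps release importin alpha cargo, stood at 57.2 and 55.5 TPM in sgMETTL1.3 cells, 58.1 and 56.6 TPM in sgMETTL1.6 cells, against 59.2 and 56.9 TPM in sgNS cells (log2 -0.029, adjusted p = 0.54). The membrane nucleoporin NUP210 had 164 and 166 TPM in the sgMETTL1.3 libraries and 139 and 143 TPM in the sgMETTL1.6 libraries, against 159.9 and 168 TPM in the sgNS libraries. The sgMETTL1.3 libraries overlapped with the controls and the sgMETTL1.6 libraries lay below them. NUP210 fell over both guides (log2 -0.10 ± 0.032, SE, limma adjusted p = 0.015), and that call was lost without sgNS replicate 2 (adjusted p = 0.20) and without the variance trend (adjusted p = 0.061).

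**Figure D3:**
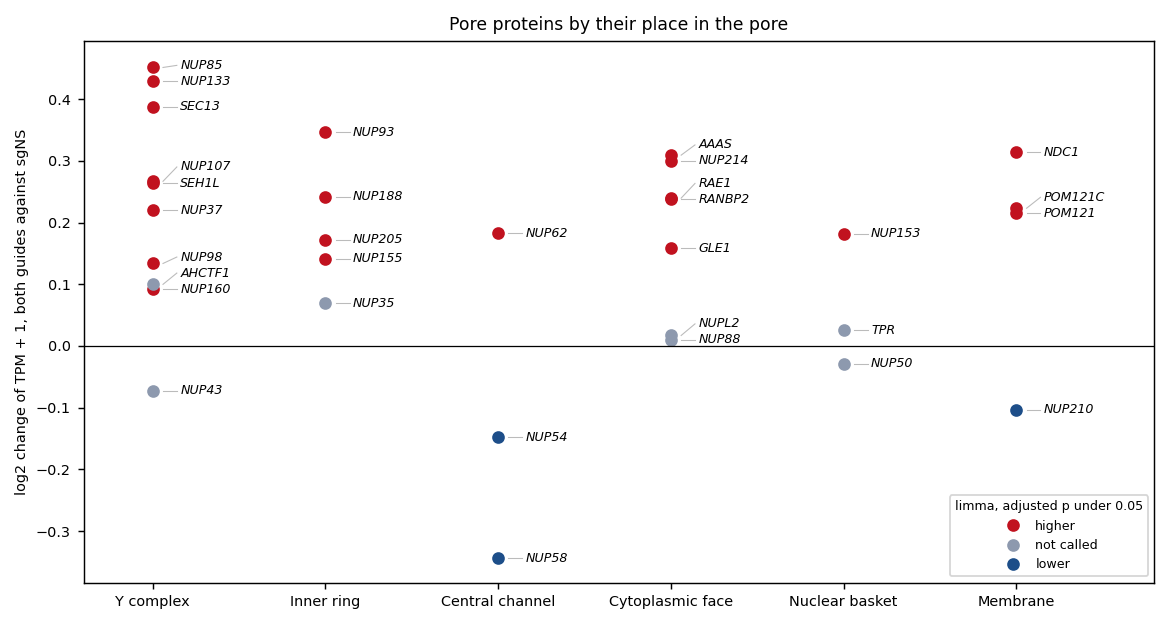
Log2 change of TPM + 1 with both METTL1 guides against sgNS (y axis) for pore proteins placed by part of the pore (x axis), including 12 pore proteins with other names; red is higher, blue lower and grey not called. The Y complex ranges from -0.072 (NUP43) to 0.45 (NUP85), and the central channel holds 1 rise and 2 falls.

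Pore proteins whose names fall outside the naming rule were read as a further list of the pathway. Of its 12 genes, all tested, 9 rose, 0 fell and 3 (TPR, AHCTF1 and NUPL2) did not pass, with a median log2 change of 0.23. The rises were 75% of the list, and over all genes tested 32.6% rose and 26.8% fell. SEC13, shared between the Y complex and the coat of COPII vesicles, had 131 and 134 TPM in sgMETTL1.3 cells, 119 and 123 TPM in sgMETTL1.6 cells, against 93.9 and 99.1 TPM in sgNS cells (log2 0.39 ± 0.035, SE, limma adjusted p = 8.7e-07). SEH1L, another Y complex subunit, rose by log2 0.26 (adjusted p = 1.4e-05), and NDC1, a membrane anchor, by 0.31 (adjusted p = 1.4e-05). POM121 and POM121C, near-identical copies whose reads the authors' counting could split, stood at log2 0.21 and 0.22 and are uncertain one by one. Over all 32 tested pore proteins, 22 rose and 3 fell. The lowest log2 change of the list was 0.017, for NUPL2.

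Factors of bulk mRNA export, which use NXF1 and its partner NXT1 and no RAN, had 22 genes tested, of which 9 rose, 5 fell and 8 did not pass. These were 40.9% and 22.7% of the list, near the 32.6% and 26.8% of all genes tested, with a median log2 change of 0.075. ALYREF, the adaptor that hands mRNA to NXF1, had 622 and 617 TPM in sgMETTL1.3 cells, 602 and 567 TPM in sgMETTL1.6 cells, against 460.3 and 463 TPM in sgNS cells (log2 0.38 ± 0.028, SE, limma adjusted p = 1.4e-07). THOC5, a subunit of the THO complex, had 31.4 and 30.6 TPM in sgMETTL1.3 cells, 29.5 and 29.3 TPM in sgMETTL1.6 cells, against 40.1 and 40.3 TPM in sgNS cells (log2 -0.40 ± 0.041, SE, limma adjusted p = 2.8e-06). Of its complex partners, THOC3 (log2 0.29) and THOC6 (0.26) rose, and THOC1 (log2 -0.021), THOC2 (0.064) and THOC7 (0.060) did not pass. SHFM1, which is also a proteasome subunit, rose by log2 0.29 (adjusted p = 3.6e-06). NXF1 itself did not pass (log2 -0.033, adjusted p = 0.44). Of 7 further receptors and adaptors, 2 rose, 1 fell and 4 did not pass. These rises and falls were 28.6% and 14.3% of the list, both below the shares of all genes tested. HEATR3, which accompanies ribosomal proteins into the nucleus, rose by log2 0.50 (adjusted p = 5.5e-07), SNUPN, the import adaptor of spliceosomal snRNPs, by 0.23 (adjusted p = 0.00012), and NMD3, the adaptor through which XPO1 exports the large ribosomal subunit, fell by 0.24 on the log2 scale (adjusted p = 0.00024).

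The guides were then compared with each other, which asks whether transport genes depended on the guide used. With sgMETTL1.6 against sgMETTL1.3, 9 of the 45 were lower and 0 higher (15.8% and 7.23% of all genes tested, 23.0% in all). At an unadjusted p under 0.05 the counts were 21 lower and 0 higher, against 26.5% and 11.4% of all genes tested. The difference was below 0 for 34 of the 45 and for 64.3% of all genes tested. The median log2 difference was -0.084 over the 45 and -0.050 over all genes tested. IPO4 had 66.6 and 65.4 TPM in sgMETTL1.3 cells, 54.9 and 55.1 TPM in sgMETTL1.6 cells, against 45.4 and 46.8 TPM in sgNS cells and differed between the guides by log2 -0.26 (adjusted p = 0.0014). NUP210 differed by log2 -0.23 (adjusted p = 0.0015), and was lower than control with sgMETTL1.6 (log2 -0.22, adjusted p = 0.00036), but did not pass with sgMETTL1.3 (log2 0.0096, adjusted p = 0.84). XPO5 differed by log2 -0.21 (adjusted p = 0.0023): it rose with sgMETTL1.3 (log2 0.30, adjusted p = 1.8e-05) and did not pass with sgMETTL1.6 (log2 0.091, adjusted p = 0.056). The other 6 were NUP98, NUP205, NUP214, NUP85, TNPO3 and XPO6. Without sgMETTL1.3 replicate 1 the count was 3. It was 5 with median-ratio scaling and again 5 when ribosomal protein genes were removed. Over all genes tested the split of lower and higher calls was 7.42% and 10.1% with median-ratio scaling, 7.36% and 8.91% with quantile normalization, and 8.79% and 8.49% when ribosomal protein genes were removed.

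**Figure D4:**
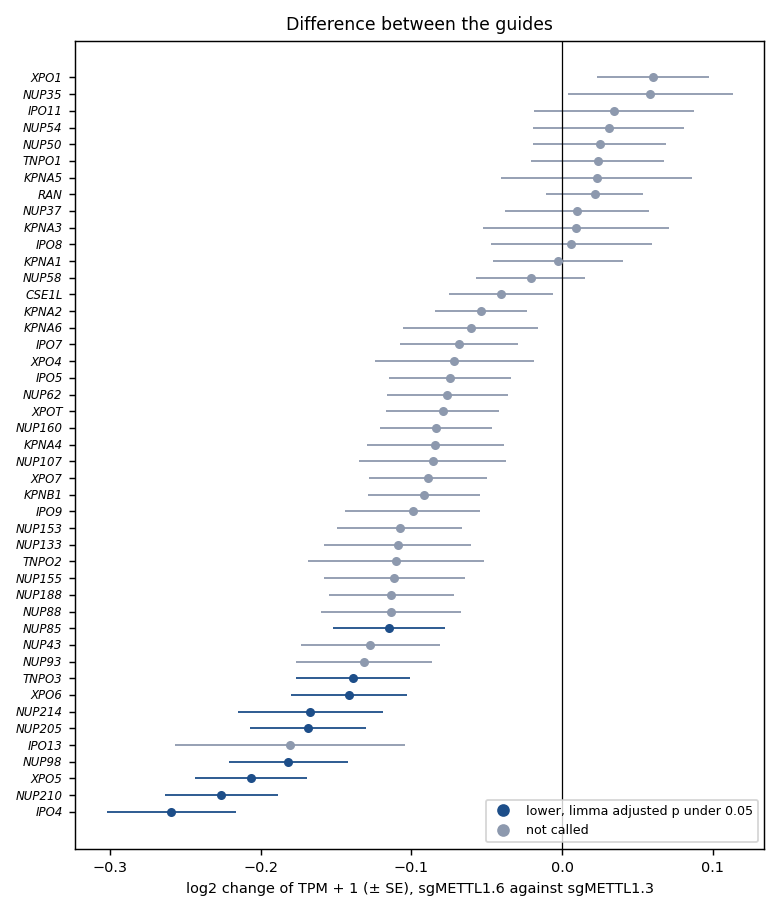
Log2 change of TPM + 1 (x axis, ± SE) for sgMETTL1.6 against sgMETTL1.3 for the 45 tested transport genes, ordered by value; blue points passed the test. IPO4, NUP210 and XPO5 lie farthest below 0, at -0.26, -0.23 and -0.21, and no gene passed above 0.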

How the data were processed

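Poly(A) RNA was sequenced from 6 Mono-Mac-6 libraries with a stranded kit, per the labels' protocols. The authors deposited TPM for 18806 gene symbols, made with RSEM 1.2.31 and the build GRCh38, per the submitters' processing notes. The sources used here give neither aligner, annotation nor use of strand. RSEM divides reads among similar transcripts by estimation. Column names gave the sample of all 6 value columns (0 unmapped).

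Values were fitted as log2(TPM + 1) with limma 3.58.1 in R 4.3.3, in 1 model of the 3 groups with a variance trend, for 10911 genes averaging at least 1 TPM. The pseudocount understates changes of low genes. Benjamini-Hochberg adjusted p-values under 0.05 over all genes were called. The fit was also run on simulated data with normally distributed noise and a small share of genes changed. Far more genes were called in the real data, so the simulation does not check those calls. Members and gene lists were chosen with earlier results of these data known. Library values were to be given for XPOT, RAN, CSE1L, XPO1, KPNB1, KPNA2 and the 3 highest and 3 deepest called changes of each class. Of other lists, and of changes between the guides, the 3 genes with the lowest p were to be named. Library values of further members, and the names NUTF2, RANBP10, THO subunits other than THOC5, NXF1, unmoved or duplicated pore genes, ATF5 and IL4I1, were chosen after their values were seen. Positions come from GENCODE 29 (GRCh38). Alternatives were other pseudocounts, filters and scalings, no trend, a replicate block and leaving out each library.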

Additional observations from a re-analysis of the deposited data

Results flagged for a closer look

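The following transport genes differed between the METTL1 guides, by the limma test of sgMETTL1.6 against sgMETTL1.3 itself. The log2 differences were -0.26 for IPO4, -0.23 for NUP210, -0.21 for XPO5, -0.18 for NUP98, -0.17 for NUP205, -0.14 for XPO6, -0.14 for TNPO3, -0.17 for NUP214 and -0.12 for NUP85. All 9 were lower with sgMETTL1.6, 20% of the 45 tested, against 15.8% of all genes tested. For IPO4, NUP210 and XPO5 the call held under each of the 15 alternatives run. The calls on NUP98, NUP205, XPO6, TNPO3, NUP214 and NUP85 were each lost in some alternatives. With 2 libraries in a group, no test for an outlying library was made.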

How the results depend on the processing

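XPOT was lower in all 15 alternatives (log2 -0.65 to -0.59, limma adjusted p from 3.5e-11 to 0.00018). Of the 32 transport genes called over both guides, 22 kept their call and sign in every alternative, and 7 of the 13 not called changed sign in some alternative without passing. Without a variance trend 3 fell over both guides, 3 fell with sgMETTL1.6 and 3 differed between the guides. Of all genes tested, 25.8% fell over both guides and 12.9% differed between the guides without the trend, against 26.8% and 23.0% with it. For sgMETTL1.6 alone the share of all genes was not computed in the alternatives. Leaving out 1 library, 3 to 5 fell over both guides, 3 to 7 with sgMETTL1.6, and 3 to 8 were lower between the guides. The share of all genes lower between the guides was also smaller in each fit that left out 1 library. With median-ratio scaling or without ribosomal protein genes, 5 differed between the guides, all lower, against 17.5% and 17.3% of all genes tested. These scalings moved the median change of all genes between the guides to -0.0077 and -0.021, against -0.050. Median changes were 0.13 for pore proteins and 0.13 for exporters with median-ratio scaling, 0.13 for pore proteins and 0.077 for importers with quantile normalization, 0.13, 0.085 and 0.13 for pore proteins, importers and exporters without ribosomal protein genes, 0.075 for importers with no filter and 0.14 for exporters with a pseudocount of 5. Leaving out 1 library they ranged from 0.12 to 0.18, 0.086 to 0.14 and 0.13 to 0.18 in the same order. The cause was not tested. In the labels, same-numbered libraries share only a number. Deviations of same-numbered libraries from their group means, over 8123 genes, correlated at -0.011 between sgNS and sgMETTL1.3. The correlation was 0.36 between sgNS and sgMETTL1.6 and 0.28 between the METTL1 guides. Whether same-numbered libraries were handled together was not tested. With the replicate block 17 transport genes differed between the guides, all lower, and the share of all genes lower was 23.0%, against 15.8% without it. Read depth is unknown.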
